A study of Mus musculus with 2 samples.

Results

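Type I interferon-stimulated genes were examined in the non-parenchymal fraction of mouse liver (its immune, endothelial, stromal and bile duct cells) after injury with carbon tetrachloride (CCl4), a liver poison that causes scarring. The list holds 33 genes, of which 31 have a row among the 32285 gene rows of the deposited matrices. The genes were selected on their symbols after the ratio of knockout to wild type had been seen for genes of this response in these same libraries, so every ratio below is a description and carries no test. Mx1 and Mx2, GTPases that block virus replication, have no row and are not analysed here. One droplet library came from Mfap2+/+ mice (labelled WT) and 1 from Mfap2-/- mice (labelled KO). Mfap2 encodes a glycoprotein of extracellular microfibrils. Both groups received CCl4 by intraperitoneal injection for 8 weeks, so neither library is from an uninjured liver. The strain, age, dose and number of animals per library are not given in the sources used here, nor is how the Mfap2 allele was disrupted.

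Type I interferons, the interferon-alpha family and interferon-beta, are secreted when a cell senses foreign or misplaced nucleic acid. They bind the receptor Ifnar1-Ifnar2, and the kinases Jak1 and Tyk2 then activate a complex that holds Stat2 and Irf9 and binds interferon-stimulated response elements in DNA. The induced genes encode proteins that bind viral RNA (the Ifit family), degrade RNA (through the oligoadenylate synthetases), sense RNA or DNA, and amplify or damp the signal. In the liver, Kupffer cells, dendritic cells and sinusoidal endothelium all respond to it.

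The regulatory element can be read in the genes' own promoters. RefSeq promoter windows on GRCm38.p6, 250 bases before to 50 bases after each start, were found for 22 of the 31 genes. The letters GAAANNGAAA, the core of the response element, were searched on both strands, with overlapping matches counted. Of these 22 genes, 12 (54.5%) held at least 1 match, against 3.99% of all 27025 genes with a window. Counted by window, 13 of their 27 windows (48.1%) held one, against 3.44% of all 32851 windows of the same length. Stretches around the matches are shown for genes that recur below, each read 5′ to 3′ along the gene's strand, with the matched letters of either strand in capitals. Ifit1 (chr19:34640760-34640838, plus strand), Ifit3 (chr19:34583348-34583441, plus), Ifit3b (chr19:34607744-34607837, plus), Isg15 (chr4:156200850-156200921, minus), Rsad2 (chr12:26456538-26456597, minus), Eif2ak2 (chr17:78882523-78882579, minus) and Bst2 (chr8:71537562-71537627, minus) had these stretches:
Ifit1: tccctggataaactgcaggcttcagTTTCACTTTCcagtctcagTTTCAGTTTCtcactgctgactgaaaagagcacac
Ifit3: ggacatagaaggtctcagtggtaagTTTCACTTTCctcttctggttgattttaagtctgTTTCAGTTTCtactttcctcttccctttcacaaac
Ifit3b: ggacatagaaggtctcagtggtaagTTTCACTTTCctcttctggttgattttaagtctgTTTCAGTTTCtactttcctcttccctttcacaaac
Isg15: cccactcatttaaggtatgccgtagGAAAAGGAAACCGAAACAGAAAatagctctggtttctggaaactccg
Rsad2: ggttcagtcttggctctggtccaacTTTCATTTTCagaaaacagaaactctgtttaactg
Eif2ak2: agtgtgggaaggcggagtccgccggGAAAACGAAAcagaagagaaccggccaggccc
Bst2: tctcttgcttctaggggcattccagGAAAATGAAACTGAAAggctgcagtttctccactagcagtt

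Ifit3 and Ifit3b, neighbours on chromosome 19, shared an identical 94-base stretch. Isg15 held 3 overlapping matches. A match is a description of the letters and says nothing on whether a factor was bound in these cells. The 12 genes with a match had a median log2 ratio of KO over WT of 0.96 in sinusoidal endothelial cells, and the 10 with a window but no match had 0.69, with ranges that overlapped almost fully (-0.39 to 1.70 and -0.55 to 1.70).

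The WT library held 82499307 unique molecular identifiers (UMIs, tags that each mark 1 captured RNA molecule) in 11783 barcodes and the KO library 118226367 in 12872, with medians of 4685 and 6511 per barcode. Mfap2 itself had 211 UMIs in the kept WT cells and 2 in the kept KO cells, as the labels imply. The libraries shared 40 cell barcodes. Each cell was assigned to a class when at least 3 of 6 markers of one of 19 panels held a UMI and that panel led every other by at least 2 markers. This placed 6192 of 10336 WT cells (59.9%) and 6771 of 11428 KO cells (59.2%). In all, 10 classes had at least 50 cells in both libraries. Their leading genes included markers of their own panel and of no other. Assignment by these markers favours that outcome, so it is no separate check of the classes. Levels are given as CPM, the UMIs of a gene or list among 1000000 UMIs of its class and library. Log2 ratios are KO over WT with 1 count added. Intervals are 95% exact Poisson or conditional intervals; they cover counting error only, not differences between cells or animals, and because each genotype is 1 library the genotypes cannot be tested against each other.

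The summed level of the 31 genes in the WT library differed widely between classes. The 10 leading genes of mesenchymal-like cells included Colec11 and Lrat, stellate-cell genes that are also markers of their panel. These cells stood highest of the 10 classes at 4134 CPM (4043 to 4226). Liver sinusoidal endothelial-like (LSEC-like) cells followed at 3395 and macrophage-like cells at 3248. These 3 levels were apart beyond counting error. Classical monocyte-like cells at 2887 and neutrophil-like cells at 2812 had overlapping intervals (2804 to 2971 and 2750 to 2876). Below them came natural killer or innate lymphoid (NK or ILC1)-like cells at 2380 and T-like cells at 2068. The conventional type 1 dendritic (cDC1)-like cells at 1498, patrolling monocyte-like cells at 1103 and B-like cells at 826 closed the order. The spread between the highest and lowest class thus exceeded the difference between the libraries in each of these 10 classes.

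**Figure D1:**
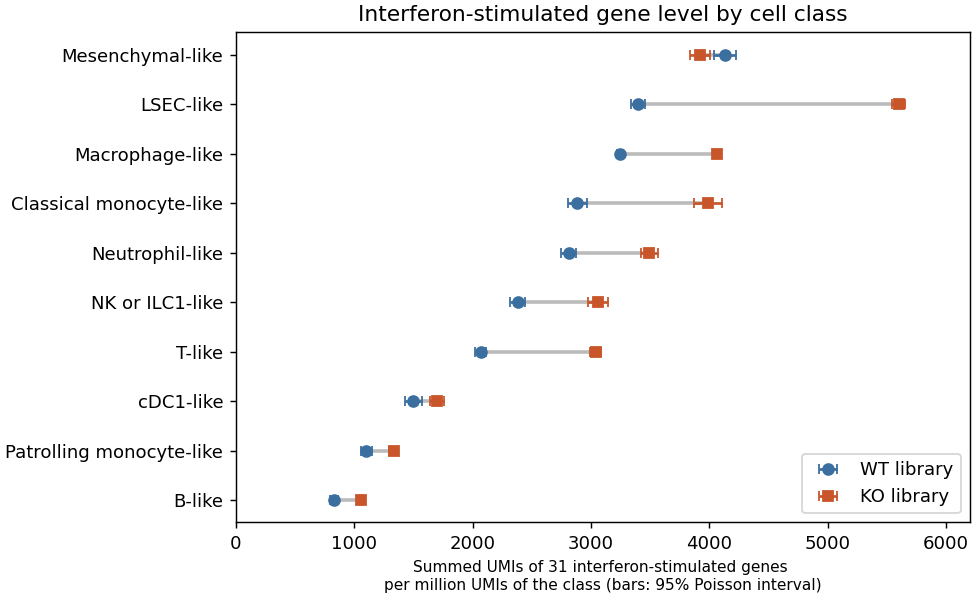
Summed CPM of the 31 interferon-stimulated genes (horizontal axis, from 0) in 10 cell classes, for the WT library (circles) and the KO library (squares); bars are 95% Poisson intervals. LSEC-like cells moved from 3395 to 5602, and mesenchymal-like cells were the one class with a lower KO value (4134 and 3924).

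Different genes made up this basal level in different classes. Ifi27l2a, which encodes a small interferon-induced protein, gave 54.5% of the summed UMIs in WT classical monocyte-like cells and 39.8% in neutrophil-like cells. Its level was 1574 CPM in classical monocyte-like, 1525 in mesenchymal-like and 120 in LSEC-like cells of the WT library. Without Ifi27l2a the order of the WT sums changed. LSEC-like cells then led at 3275 CPM, before mesenchymal-like (2609), macrophage-like (2363) and NK or ILC1-like cells (2238). Classical monocyte-like cells stood at 1312. LSEC-like cells held the highest WT level of Bst2 (493 CPM), the membrane tether that holds budding virus, and of Parp14 (264), an ADP-ribosyl transferase. They also led for Ifit2 (150), Rsad2 (195), Eif2ak2 (130) and Ifi44 (102).

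The lymphocyte classes had another profile. Isg15, the ubiquitin-like modifier, was highest in NK or ILC1-like cells (530 CPM), then in T-like cells (341), and lowest in B-like cells (26.9). Ifit1 followed the same order, at 302, 158 and 7.96 CPM. Ifih1, the cytosolic sensor of long double-stranded RNA also called MDA5, was at 408 in NK or ILC1-like and 309 in T-like cells and at 20.9 in B-like cells. For Irf7, the factor that amplifies interferon production, macrophage-like cells led with 271 CPM. Neutrophil-like cells had the highest WT level of Oas3 (59.8), Oasl2 (161) and Rtp4 (146).

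Among the 10 classes, LSEC-like cells had the largest ratio of the summed level between the libraries. Their summed level was 3395 CPM in the 692 WT cells and 5602 in the 938 KO cells, a log2 ratio of 0.72 (0.69 to 0.75). The 31 genes had a median log2 ratio of 0.70, close to the 0.66 of classical monocyte-like cells, while the median of all 12594 genes with at least 20 UMIs in the class was -0.05. At least 2-fold higher in the KO library were 11 of the 31 genes, against 2.92% of all genes; 0 were at least 2-fold lower, against 2.52%. At 1.5-fold, 19 were higher, against 9.9% of all genes, and 0 were lower, against 13.4%. Of the 4 genes below 0, 3 had intervals that left out 0.

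Ifit1, Ifit2 and Rsad2 had the highest ratios of the list in LSEC-like cells. Ifit2, which binds viral RNA and restrains its translation, was at 150 CPM in the WT and 487 in the KO library (log2 ratio 1.70, 1.57 to 1.83). Ifit1, which binds RNA that lacks cap methylation, was at 70.6 and 230 (1.70, 1.52 to 1.90). Rsad2 (viperin), which makes a chain-terminating nucleotide, was at 195 and 545 (1.48, 1.37 to 1.60). Cmpk2, its neighbour on chromosome 12 and a nucleotide kinase, was at 21.7 and 55.0 (1.33). Ifit3b had a log2 ratio of 1.28 and Ifit3, the partner of Ifit1, one of 0.89, with levels of 74.4 and 139 CPM.

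The oligoadenylate synthetase family, whose active enzymes make the messenger that activates RNase L, was also mostly higher in KO LSEC-like cells. Oas2 had few UMIs, 4.07 and 10.9 CPM (1.35, 0.61 to 2.33). Oas1a was at 23.1 and 48.6 (1.06) and Oasl1 at 64.6 and 132 (1.02). Oasl2 had a ratio of 0.69, and the interval of Oas3 (0.53, -0.37 to 1.69) held 0. Eif2ak2, the kinase PKR that halts translation on double-stranded RNA, was at 130 and 266 (1.03). Usp18, the protease that removes Isg15 from proteins and damps receptor signalling, was at 42.9 and 86.6 (1.01), whereas Isg15 was at 170 and 261 (0.61). The exonuclease gene Isg20 was scarce, at 8.14 and 13.5 (0.70).

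Among the sensors, Ifih1 was at 225 and 464 CPM in LSEC-like cells (1.04, 0.93 to 1.16). Ifi204, which belongs to the DNA-binding p200 family, was at 223 and 388 (0.80). Dhx58, the LGP2 regulator of Ifih1, had 0.14 and Zbp1, a sensor of left-handed nucleic acid, had -0.25, both with intervals that held 0. The factors that carry the signal differed little upward: Stat2 had 0.20 (0.03 to 0.38) and Irf9 0.09 (-0.12 to 0.32). Irf7 was lower in the KO library, at 82.0 and 55.9 CPM (-0.55, -0.77 to -0.33). Also lower were Bst2, at 493 and 375 (-0.39, -0.48 to -0.31), and Ifi35, at 77.1 and 57.7 (-0.42, -0.64 to -0.19). The genes thus lay on both sides of 0 in this class. Of the remaining genes, Ifi44 (0.99), Parp14 (0.92), Parp9 (0.64) and Trim30a (0.46) were higher in the KO library, and Xaf1 (0.34), Rtp4 (0.27) and Ifi27l2a (0.07) differed least.

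**Figure D2:**
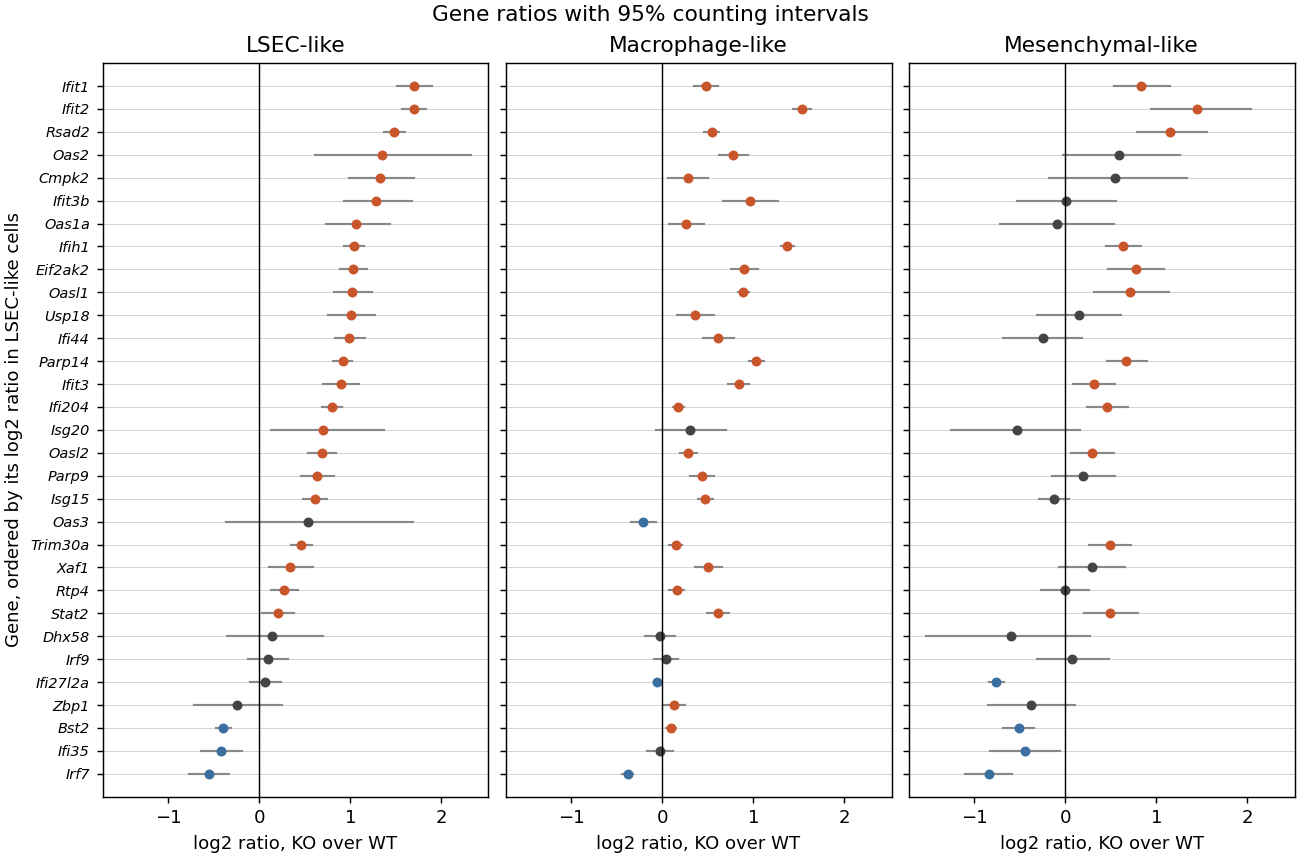
Log2 ratio of KO over WT (horizontal axis) for each interferon-stimulated gene with at least 20 UMIs, in LSEC-like, macrophage-like and mesenchymal-like cells; lines are 95% counting intervals, red and blue points have intervals above and below 0, and dark points have intervals that hold 0. Ifit1 and Ifit2 stand at 1.70 in LSEC-like cells, and Ifi27l2a, Irf7, Bst2 and Ifi35 lie below 0 in mesenchymal-like cells.

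Other measures differed between the same LSEC-like cells. The 18 genes induced by tissue dissociation summed to 14417 CPM in the WT and 22948 in the KO library, with a median log2 ratio of 0.59. The heat-shock genes led them: Hsph1 was at 262 and 1145 CPM, Bag3 at 129 and 366, Hspa1b at 1217 and 3187, and Hspa1a at 660 and 1492. The part of this in the interferon-stimulated gene ratios was not tested. In T-like cells the same 18 genes summed to 19311 and 18856 CPM and the interferon-stimulated genes to 2068 and 3041. How the dissociation genes and the interferon-stimulated genes relate was not tested in any class. The macrophage panel in LSEC-like cells summed to 535 and 515 CPM and the vascular endothelial panel to 853 and 716. In each library 0 of 6 markers of either were at 0. Panels of other cells differed in both directions. The cDC2 panel (99.1 and 127), the cDC1 panel (54.3 and 70.8) and the B panel (29.6 and 42.1) were higher in the KO library. The part of such RNA in the ratios was not tested.

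The log2 ratio also followed the genomic span of a gene, meaning its length in GENCODE M21 from first to last exon, introns included. In LSEC-like cells the median ratio of all genes went from -0.42 in the decile of shortest genes to 0.31 in the decile of longest, and Pearson's r across 12585 genes was 0.33. Genes share libraries and are not independent, so this is a description. Irf7 (3776 bases), Bst2 (3202) and Isg15 (1395) lie in the shortest decile. Against the median of their own decile, Irf7 was at -0.13, Bst2 at 0.03, Ifi35 at -0.17 and Zbp1 at 0.00 in rounded log2 units. The median of the 31 genes became 0.92 in LSEC-like cells, and 14 of them stood at least 2-fold above their decile, against 3.97% of all genes. In macrophage-like cells the median was 0.36 both ways.

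**Figure D3:**
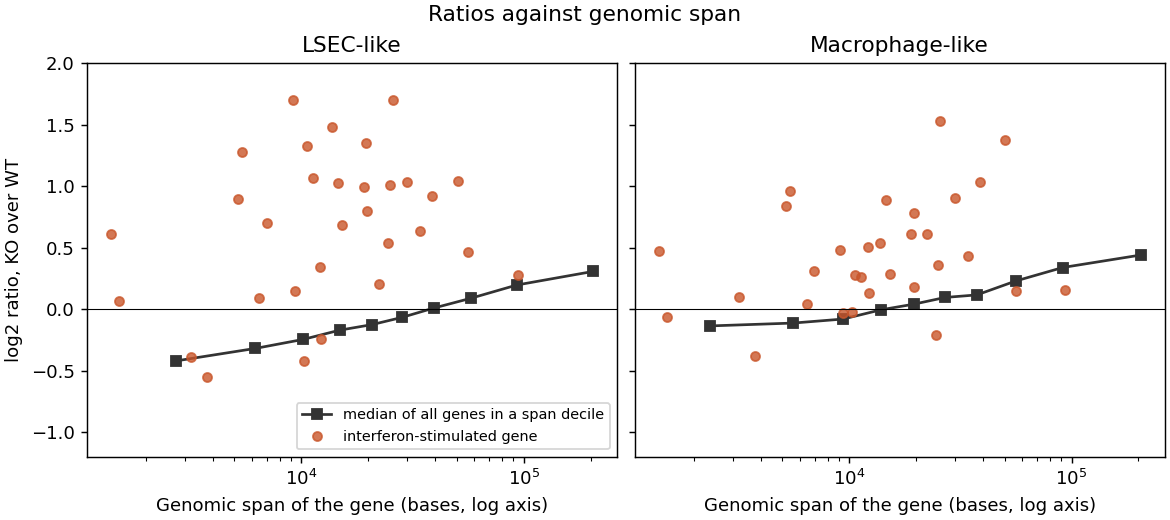
Log2 ratio of KO over WT (vertical axis) against genomic span in bases (log axis) in LSEC-like and macrophage-like cells; squares joined by a line are medians of all genes in 10 deciles of span and circles are the interferon-stimulated genes. In LSEC-like cells the line runs from -0.42 to 0.31 and most circles lie above it.

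Macrophage-like cells, 1943 in the WT and 1837 in the KO library, had a summed level of 3248 and 4062 CPM (log2 ratio 0.32, 0.31 to 0.34). The median over the 31 genes was 0.36 and that over all 14661 genes was 0.12. At least 2-fold higher were 3 of the 31 genes, against 5.6% of all genes, and 0 were 2-fold lower, against 1.25%. The 3 were Ifit2 at 54.7 and 158 CPM (1.53, 1.43 to 1.64), Ifih1 at 117 and 303 (1.37, 1.30 to 1.44) and Parp14 at 95.2 and 195 (1.03, 0.95 to 1.11). Ifit1, which matched Ifit2 in LSEC-like cells, had only 39.0 and 54.5 here (0.48, 0.34 to 0.62). Irf7, highest in this class, was lower in the KO library, at 271 and 208 (-0.38, -0.44 to -0.32), and Oas3 was at 47.4 and 41.0 (-0.21). Cells with a UMI of Clec4f, a Kupffer cell lectin, had summed levels of 3156 and 4062 CPM, and those without one had 3338 and 4063. Dissociation genes summed to 28714 and 38579 in this class, with Bag3 at 78.6 and 537, Hsph1 at 282 and 1287, Dnajb1 at 276 and 801 and Hspa1b at 1523 and 3545; their part in these ratios was not tested.

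T-like cells, 556 and 669, had the second largest ratio of the summed level among the 10 classes, 2068 and 3041 CPM (0.56, 0.52 to 0.60). At least 2-fold higher were 9 of 31 genes, against 4.56% of all genes, and 0 were 2-fold lower, against 1.31%. Ifit1 was at 158 and 368 CPM (1.22, 1.08 to 1.36), Rsad2 at 36.4 and 97.3 (1.41) and Ifih1 at 309 and 674 (1.13). The others were Ifit2, Ifit3, Ifit3b, Oas2, Oasl1 and Oasl2. Isg15, already high in the WT library, was nearly level at 341 and 368 (0.11, 0.01 to 0.22).

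NK or ILC1-like cells, 293 and 172, had 2380 and 3057 CPM (0.36). Here 6 of 30 genes were at least 2-fold higher, against 4.71% of all genes, and 0 were 2-fold lower, against 1.62%. Ifit2 was at 41.9 and 99.8 (1.25) and Ifih1 at 408 and 697 (0.77). Isg15 was lower in the KO library, at 530 and 431 (-0.30, -0.44 to -0.16). In B-like cells, 684 and 1165, the sum was 826 and 1060 (0.36). In this class 6 of 31 genes were at least 2-fold higher, against 3.85% of all genes, and 1 was 2-fold lower, against 1.5%. That gene was Isg20, at 9.86 and 4.76 CPM on 26 and 29 UMIs (-1.06, -1.86 to -0.23).

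The monocyte classes differed from each other in level and ratio. Classical monocyte-like cells, 175 and 101, had 2887 and 3988 CPM (0.47), with 8 of 29 genes at least 2-fold higher, against 5.2% of all genes, and 0 lower, against 1.36%. Ifit2 was at 6.22 and 27.6 (2.06, 1.08 to 3.34), Eif2ak2 at 19.9 and 57.8 (1.52) and Oasl1 at 70.9 and 188 (1.40). Patrolling monocyte-like cells, 418 and 564, had 1103 and 1334 (0.27), with 6 of 30 genes higher, against 4.88%, and 0 lower, against 1.29%. Oasl1 had there the highest log2 ratio of any gene and class, from 12.9 to 75.9 CPM (2.51, 1.98 to 3.18). The 5 richest cells held 25.9% of its UMIs there in the WT and 41.2% in the KO library, and 1.22% and 5.01% of cells thinned to 1000 UMIs had one. In classical monocyte-like cells the 5 richest held 54.5% of the KO Oasl1 UMIs. Ifi27l2a split the 2 monocyte classes: it was at 1574 and 1862 in the classical (0.24, 0.16 to 0.33) and at 445 and 349 in the patrolling class (-0.35, -0.48 to -0.23).

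Neutrophil-like cells, 960 and 781, had 2812 and 3491 CPM (0.31), with 2 of 31 genes at least 2-fold higher, against 5.39% of all genes, and 0 lower, against 3.06%. These were Ifit1, at 37.5 and 81.0 (1.10), and Ifit3, at 31.7 and 68.6 (1.10). In cDC1-like cells, 69 and 88, the sum was 1498 and 1700 (0.18). Of 26 genes 1, Eif2ak2, was 2-fold higher at 17.6 and 40.3 (1.14), against 6.69% of all genes, and 0 were lower, against 1.38%. Irf7 was at 99.3 and 60.5 in that class (-0.72, -1.10 to -0.33). Both classes thus held few genes past 2-fold in a setting where 5.39% and 6.69% of all genes passed it. Their medians differed, however. In neutrophil-like cells the median over the 31 genes was 0.55 and that of all genes 0.07. In cDC1-like cells the median over 26 genes was 0.24 and that of all genes 0.11.

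Mesenchymal-like cells, 158 and 160, went the other way in the sum, at 4134 and 3924 CPM (-0.08, -0.12 to -0.03). The sum turned on Ifi27l2a, at 1525 and 900 (-0.76, -0.84 to -0.68); without it the remaining 30 genes summed to 2609 and 3024 (0.21, 0.16 to 0.27). The median over 30 genes was 0.24 and that of all genes 0.15. At least 2-fold higher were 2 of 30 genes, against 6.64% of all genes, and 0 were lower, against 4.27%. They were Ifit2 at 19.8 and 54.9 (1.45) and Rsad2 at 42.7 and 95.7 (1.15). Irf7 (163 and 91.1), Bst2 (323 and 227) and Ifi35 (66.1 and 48.5) were lower, with log2 ratios of -0.84, -0.51 and -0.44. Genomic span and ratio went together more closely here than elsewhere (r 0.53 over the 30 genes and 0.42 over 11339 genes). The decile of shortest genes, which holds Irf7, Bst2 and Ifi27l2a, had a median of -0.45 over all its genes in this class.

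**Figure D4:**
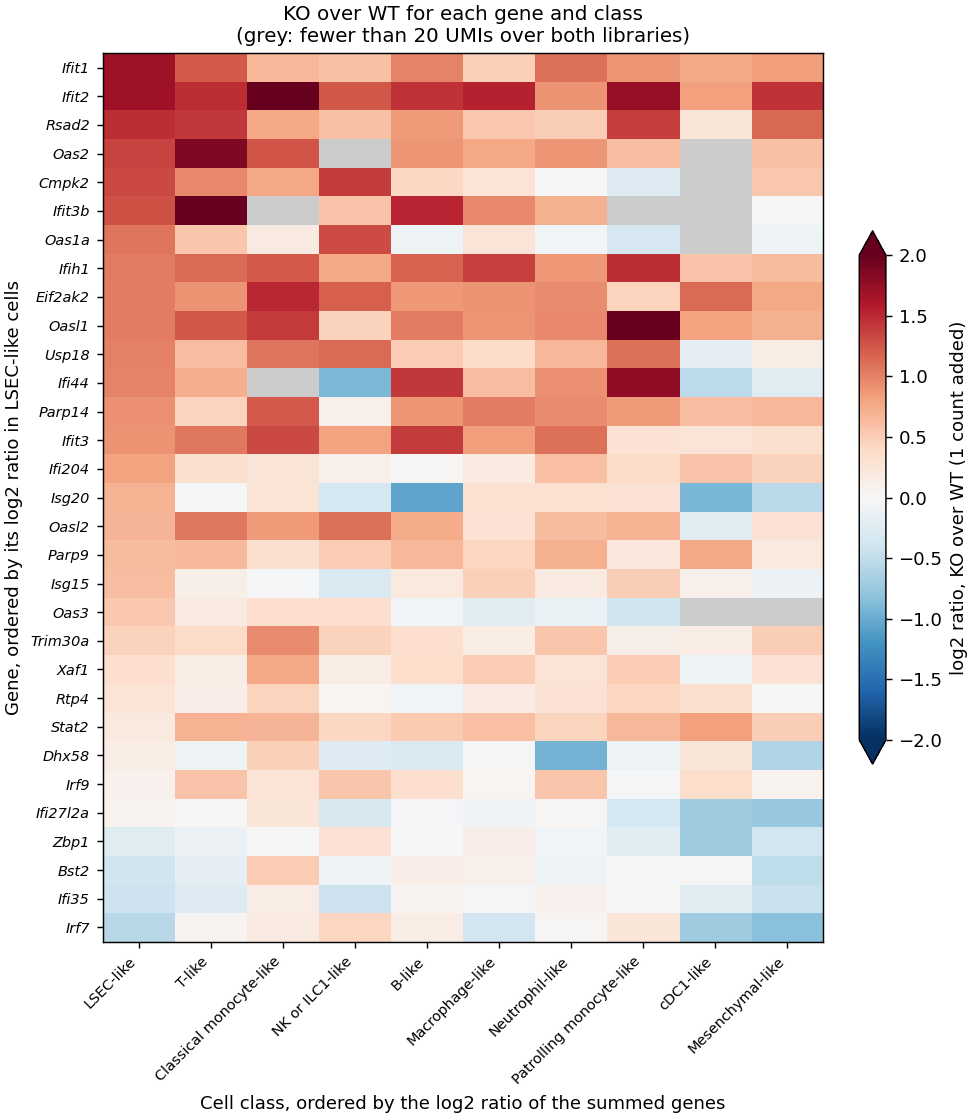
Log2 ratio of KO over WT (color) for 31 interferon-stimulated genes (rows, ordered by LSEC-like cells) in 10 cell classes (columns, ordered by the ratio of the sum); grey cells have fewer than 20 UMIs over both libraries. Ifit2, Ifih1 and Eif2ak2 are above 0 in each of the 10 classes, while Irf7, Ifi35, Bst2 and Ifi27l2a are below 0 in 4 to 6 of them.

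Across the 10 classes the member median exceeded the all-gene median in 10. Ifit2 was above 0 in 10 of 10 classes and at least 2-fold higher in 8, and Ifih1 was above 0 in 10 and 2-fold higher in 6. Ifit1, Rsad2, Oasl1, Eif2ak2, Stat2, Parp9, Parp14, Trim30a, Ifit3 and Ifi204 were also above 0 in 10 of 10. In contrast, Bst2, Ifi35, Ifi27l2a and Zbp1 were below 0 in 6 of 10 classes, Dhx58 in 7 and Isg20 in 5. Of all genes, 45.9% in LSEC-like to 62.9% in NK or ILC1-like cells were above 0. At least 2-fold higher were 2.92% in LSEC-like to 6.69% in cDC1-like cells. The share of all genes above 0 in 10 of 10 classes was not computed. All classes come from the same 2 libraries, so the counts over classes are not independent observations.

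Whether the higher level lay in few or in most cells was read after thinning each cell to 1000 UMIs, which removes the difference in depth. In LSEC-like cells this left 670 WT and 925 KO cells. The mean number of UMIs of the 31 genes was 3.099 and 5.095 per cell, the median 3 and 4, the lower quartile 1 and 2 and the upper quartile 4 and 7. At least 5 UMIs were found in 23.7% of WT cells (20.6 to 27.1, Clopper-Pearson) and 47.5% of KO cells (44.2 to 50.7), and at least 10 in 2.09% and 13.2%. The whole distribution was thus shifted, with a longer upper end. Above the WT 95th percentile of 7 UMIs lay 4.78% of WT and 21.9% of KO cells (19.3 to 24.8).

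This gap in mean UMIs per LSEC-like cell was divided by rank within each library. The richest 5% of cells contributed 15.6% of it, the cells between the median and that limit 62.8%, and the cells below the median 21.7%. Cells with an Ifit1, Ifit2, Ifit3 or Ifit3b UMI made up 19.0% of WT (16.1 to 22.1) and 44.9% of KO cells (41.6 to 48.1). The other 27 genes also averaged more UMIs in cells without an Ifit UMI, 2.63 in the WT and 3.32 in the KO library, and in cells with one, 3.77 and 5.50. Before thinning, Ifit2 was found in 32.7% and 61.7% of LSEC-like cells, with median depths of 4971 and 6808 UMIs; after it, in 8.96% and 28.5%.

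**Figure D5:**
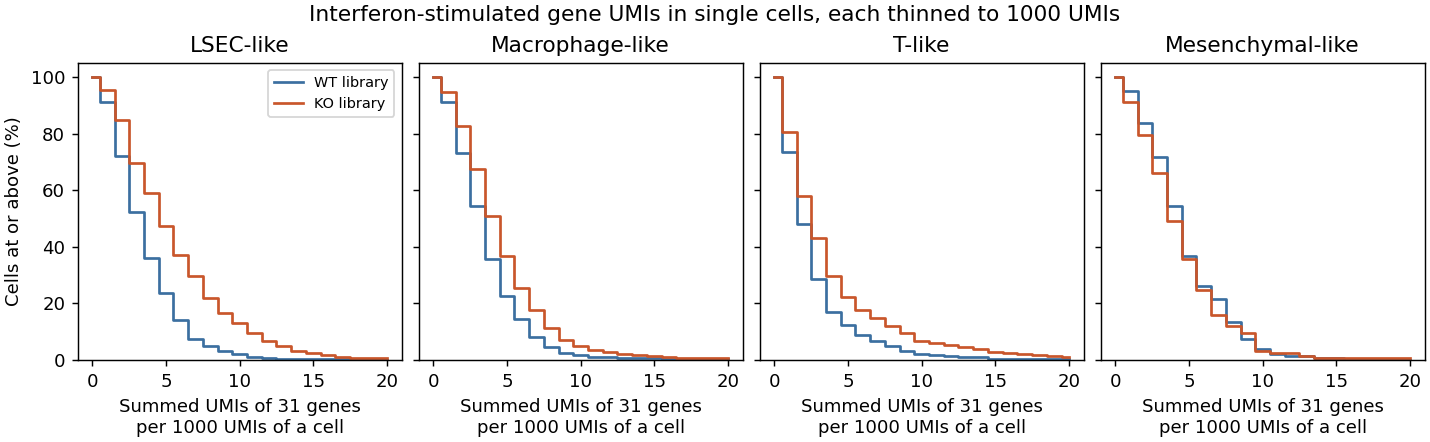
Share of cells (vertical axis, %) with at least a given number of UMIs of the 31 genes per 1000 UMIs of the cell (horizontal axis) in LSEC-like, macrophage-like, T-like and mesenchymal-like cells of the WT and KO libraries. At 5 UMIs the LSEC-like curves stand at 23.7% and 47.5%, and the mesenchymal-like curves at 36.9% and 35.7%.

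Macrophage-like cells had a smaller shift, with means of 3.16 and 4.18 UMIs, medians of 3 and 4, and 17.7% of the gap in the richest 5%. The share above the WT 95th percentile was 4.40% and 11.3%. In T-like cells more of the gap lay in the richest cells. Their median was 1 and 2 UMIs, 27.1% of the gap lay in the richest 5% and 12.8% in the cells below the median, and the 95th percentiles were 7 and 11.8. Cells with an Ifit UMI, 12.1% of WT and 25.7% of KO T-like cells, averaged 4.33 and 5.02 UMIs of the other genes against 1.62 and 1.93 in cells without one. Their UMIs were also the most unevenly spread, with a variance over mean of 4.18 and 5.40, against 1.81 and 3.105 in LSEC-like cells. In NK or ILC1-like cells 32.0% of the gap lay in the richest 5%.

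Genes upstream of the list were examined next. Of 20 type I and III interferon genes, 12 had any UMI, in all 325 in the WT and 1295 in the KO library. Ifnb1, which encodes interferon-beta, held 273 of these in 84 of 10336 WT cells (0.813%) and 1150 in 290 of 11428 KO cells (2.54%). Thinned to 1000 UMIs, the shares were 0.329% (0.224 to 0.467) and 0.656% (0.512 to 0.826). The 10 richest cells held 48.4% of the Ifnb1 UMIs in the WT and 28.2% in the KO library. Macrophage-like cells had 38 and 210 Ifnb1 UMIs in 15 and 61 cells (log2 ratio 2.20, 1.73 to 2.77), with at most 12 and 23 in 1 cell. T-like cells had 5 and 15, LSEC-like cells 0 and 9 and B-like cells 0 and 8, and in the KO library these were single UMIs, 1 to a cell. Whether they came from free RNA in the droplets was not tested. Of the cDC1-like UMIs, 1 in the WT and 30 in the KO library, 21 lay in 1 KO cell. Classical monocyte-like cells, with 26 and 3, and neutrophil-like cells, with 12 and 3, had fewer in the KO library, and 1 WT cell of each held 18 and 9 of them. Cells of no class held most of the Ifnb1 UMIs, 170 in 49 WT cells and 743 in 145 KO cells. The conventional type 2 dendritic (cDC2)-like cells, only 33 in the WT and 85 in the KO library, had Ifnb1 in 6 (18.2%) and 24 (28.2%) cells, and their summed interferon-stimulated gene level was 5421 and 6812 CPM.

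Receptor and signalling genes had a median log2 ratio of 0.16 in LSEC-like cells, with 0 of 8 past 2-fold in either direction, against 2.92% of all genes higher and 2.52% lower. Their summed level was 3102 and 4638 CPM. Most of that sum was the kinase gene Jak1, at 2260 and 3602 (0.67, 0.64 to 0.71). Socs3, an inhibitor of the kinases, was at 360 and 496 (0.46), whereas the receptor genes were nearly level, Ifnar1 at 47.5 and 44.7 CPM and Ifnar2 at 221 and 235. Of 13 tested genes for nucleic acid sensing 1 was 2-fold higher, against the same 2.92%, and 0 lower: Cgas, the cytosolic DNA sensor, at 40.7 and 93.5 CPM. Tmem173, which encodes its partner STING, was lower at 46.1 and 29.1 (-0.66, -0.96 to -0.36). In macrophage-like cells 1 of 15 was, against 5.6% of all genes: Tlr8, at 10.4 and 25.8.

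Interferon-induced genes that are not on the list were also mostly higher in KO LSEC-like cells. Of 28 tested, 5 were at least 2-fold higher and 0 lower, against 2.92% and 2.52% of all genes, with a median of 0.59: Slfn8 (2.17 and 9.25 CPM), Herc6 (153 and 402), Mndal (578 and 1295), Parp10 (30.4 and 65.2) and Ifi209 (6.51 and 13.9). Ifitm3, which blocks virus entry, was lower at 2284 and 1524. A further list held the interferon-gamma gene Ifng, its receptor genes Ifngr1 and Ifngr2, and genes chosen as responding to interferon-gamma. Of its 19 tested genes, 4 were higher and 0 lower, against the same shares, with a median of 0.54. These were Ciita (2.17 and 6.63), Tgtp2 (24.7 and 66.4), Irgm1 (86.0 and 215) and Gbp5 (49.7 and 101). In macrophage-like cells 1 of 28 of the former passed 2-fold, Herc6 (25.6 and 63.7), a share below the 5.6% of all genes. Of the 20 interferon-gamma genes 4 did: Ciita (21.1 and 45.1), Iigp1 (45.3 and 93.6), Tgtp1 (0.273 and 0.698) and Tgtp2 (2.29 and 6.51). Tgtp1 was close to the minimum of 20 UMIs over both libraries. The difference between the type I and the interferon-gamma lists was not tested.

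Over the 20 combinations of class and library, 8620 further genes were ranked by Pearson's r with the mean log2 level of the 31 genes. Lgals9, which encodes galectin-9, was the most alike (0.95). Then came Rnf213 (0.88), Dhrs3 (0.88), Gpr146 (0.87), Fer (0.84), Klhl9 (0.84), Parp10 (0.83), Lhfpl2 (0.82) and Gbp2 (0.81). The points share 2 libraries and the marker-defined classes. Dhrs3 and Gpr146, alike across classes, were lower in KO LSEC-like cells (-0.31 and -0.72), unlike Rnf213 (0.98) and Parp10 (1.09).

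Counts of some genes are uncertain. In the last 500 bases of its transcripts, Oas1a shared 56.1% of its 50-base words with Oas1g, Trim30a 19.9% with Trim30d and Ifit3 14.9% with Ifit3b, so reads may have been dropped or split between these copies. Dhx58, Ifi35, Irf7, Oasl1, Parp9, Rtp4 and Usp18 each overlap another gene that runs antisense to them, while Irf9 overlaps Rnf31 and Rtp4 overlaps Gm45338 on their own strand.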

How the data were processed

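Libraries were Chromium 3′ v3, per the labels' protocols. The deposited values are raw counts of UMIs per gene and barcode, which the authors deposited as Cell Ranger output; the file headers name version 7.0.1, whereas the submitters' processing notes name Cell Ranger 3.1.0, Seurat and mm10, and the difference could not be settled. Whether intronic reads were counted is not given in the sources used here.

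Barcodes with under 200 genes or over 20% mitochondrial UMIs (413 WT, 149 KO) were left out. Doublets were scored with Scrublet (scanpy 1.11.5); the automatic threshold marked 7 WT cells (0.0616%) and did not work there, so the highest-scoring 0.8% per 1000 cells were removed (1034 and 1295). Of 31 genes, 31 were placed on GENCODE M21. The ratio and interval steps were tested on simulated Poisson counts, which hold no differences between cells. The thinning step was tested on WT LSEC-like cells. The 33 genes and all other lists were chosen with earlier results of these data known. Beyond the 33, genes were named where another list's gene was at least 2-fold apart in LSEC-like or macrophage-like cells, and for the 10 most alike, of which 1 is not reported here; further genes were picked after their values were seen. Alternatives covered class assignment, doublets, filters, scaling, depth, the richest cells and 6 genes set aside as copies.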

Additional observations from a re-analysis of the deposited data

Results flagged for a closer look

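The following results had opposite directions in 2 classes, each with a counting interval that left out 0; none of these differences was tested, and each rests on 1 library per genotype. The summed level of the 31 genes had a log2 ratio of -0.075 in mesenchymal-like cells, opposite to LSEC-like cells (0.72). Isg15 had -0.30 in NK or ILC1-like and 0.61 in LSEC-like cells. Isg20 had -1.06 in B-like and 0.70 in LSEC-like cells, on few UMIs. Irf7 had -0.84 in mesenchymal-like and 0.43 in NK or ILC1-like cells. Ifi27l2a had -0.76 in mesenchymal-like and 0.24 in classical monocyte-like cells. Bst2 had -0.51 in mesenchymal-like and 0.52 in classical monocyte-like cells. Isg15, Irf7, Ifi27l2a and Bst2 lie in the decile of shortest genes. The median over all genes of that decile was -0.45 in mesenchymal-like and -0.42 in LSEC-like cells. It was -0.23 in NK or ILC1-like and -0.18 in classical monocyte-like cells. The part of genomic span in these flagged ratios was not tested.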

How the results depend on the processing

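The number of classes whose gene median exceeded that of all genes stayed at 9 or 10 of 10 under the 18 settings that gave it. The LSEC-like median, 0.70, was 0.75 with at least 4 markers and 0.75 for the mean of per-cell values. It was also 0.75 without the 5% richest cells and at a minimum of 50 UMIs. It was 0.80 after thinning to 1000 UMIs and 0.78 under median of ratios scaling. With mitochondrial, ribosomal protein and haemoglobin genes out of the total it was 0.63. Without Ifit3, Ifit3b, Oas1a, Oasl1, Oasl2 and Ifi204, 6 genes set aside as copies, it was 0.61. Of these, Ifit3b, Oasl1, Oasl2 and Ifi204 shared at most 1.77% of their 50-base words with another gene, while Trim30a (19.9%) stayed in. This setting thus does not single out shared sequence. The macrophage-like median, 0.36, was 0.41 and 0.48 with a lead of 1 and 3 markers, 0.33 without doublet removal, 0.33 with stricter cell filters, 0.28 under median of ratios, 0.30 with the reduced total, 0.39 for per-cell means, 0.50 after thinning to 1000 UMIs and 0.40 without the richest cells. The LSEC-like sum, 0.72, was 0.77 and 0.68 with a lead of 1 and 3, 0.80 under median of ratios, 0.65 with the reduced total and 0.66 after thinning to 2000 UMIs. The share of KO LSEC-like cells above the WT limit, 21.9%, was 17.7% with 4 markers, 16.6% with a lead of 3, 17.0% without doublet removal, 18.2% with stricter cell filters, 19.1% at 2000 UMIs and 27.1% above the WT 90th percentile; the limit is a whole number of UMIs. At 1.5-fold, 19 genes in place of 11 were higher in LSEC-like cells, against 9.9% of all genes. LSEC-like cells had the highest sum of the 10 classes under 15 of 15 alternatives and the highest median under 16 of 18; classical monocyte-like cells led with a lead of 1 (0.83) and T-like cells after thinning to 1000 UMIs (0.81). Settings chosen after seeing the data gave LSEC-like medians of 0.92 relative to genes of the same span and 0.75 without Ifi27l2a, which put the macrophage-like median at 0.40. Of all values, 2 changed sign: the cDC1-like median with a lead of 3 (-0.055; main 0.24) and the mesenchymal-like sum without Ifi27l2a (0.21). Sums in the smaller classes moved by over 1.5 times: with a lead of 3 the classical monocyte-like sum went from 0.47 to 0.22, the patrolling from 0.27 to 0.13 and the NK or ILC1-like from 0.36 to 0.67. Over all alternatives the cDC1-like sum ran from 0.035 to 0.39, the NK or ILC1-like from 0.20 to 0.67, the patrolling from 0.13 to 0.58, the neutrophil-like from 0.24 to 0.48 and the mesenchymal-like from -0.19 to 0.21. The causes of these shifts were not tested. No paired analysis was possible because each genotype has 1 library; leaving out a library leaves no comparison.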

Other observations

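Classes with under 50 cells in either library entered none of the rankings or ratios above. Their summed levels of the 31 genes, in CPM, were 1023 (16 WT cells) and 4957 (21 KO cells) in migratory dendritic-like cells, 3075 and 3474 in plasmacytoid dendritic-like cells (18 and 62 cells), and 2403 and 4200 in vascular endothelial-like cells (27 and 26 cells). Cholangiocyte-like cells (69 and 49) had 1233 and 1395, and plasma-like cells (30 and 29) had 1091 and 1714. The cDC2-like cells (33 and 85), described above, had 5421 and 6812, the highest WT level of any class. Cells assigned to no class had 2349 in 4144 WT and 3390 in 4657 KO cells. The log2 ratios of migratory dendritic-like (2.27, 2.02 to 2.54) and vascular endothelial-like cells (0.80, 0.64 to 0.97) were above the 0.72 of LSEC-like cells. Both rest on few cells.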
